A study of Mus musculus with 11 samples.

Results

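The genes of respiratory complex I were examined in gonadal white adipose tissue (WAT) of mice on a high fat diet (HFD), with and without an inhibitor of a gut microbial enzyme. They were taken as every gene of the expression table whose symbol begins with Nduf, which gave 44 genes of the 12787 listed, and 43 of them are described. Of these, 34 encode subunits of the complex (6 core and 28 accessory subunits) and 7 encode the assembly factors Ndufaf1 to Ndufaf7. The other 2, Ndufa4 and Ndufa4l2, carry the name without being counted as complex I subunits in current annotation. The male C57Bl6/J mice were all kept on a 60% HFD for 20 weeks. The 5 HFD control mice received vehicle, and the 6 IMC-treated mice received 0.06% w/w iodomethylcholine (IMC) in the same diet, a small molecule that blocks CutC, the bacterial enzyme that makes trimethylamine from choline. One library of mRNA was sequenced per mouse, after a further control sample had been dropped for quality. The mice are called HFD 1 to HFD 5 and IMC 1 to IMC 6, where the numbers are names and pair no mice.

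Complex I (NADH:ubiquinone oxidoreductase) is the entry point of the mitochondrial respiratory chain for electrons from NADH. Its matrix arm oxidises NADH on a flavin and passes the electrons along iron-sulphur clusters to ubiquinone, and its membrane arm uses the released energy to pump protons. The core subunits are those shared with bacteria and carry the chemistry, the accessory subunits surround them and serve assembly and stability, and the assembly factors help to build the complex without remaining in it. In white adipocytes the complex is known for reoxidising NADH of the mitochondrial matrix, such as that from fatty acid oxidation.

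The level of each gene was given as log2 CPM, the log2 of its read count relative to the library (CPM) after the scaling of the authors. Depth ranged from 22320022 to 25155366 reads per library over the listed genes, and every Nduf gene described was backed by at least 67 reads in each mouse. A gene is said to have risen or fallen where the adjusted p (limma, Benjamini-Hochberg over all 12787 genes) was under 0.05. Fold changes are given as IMC-treated minus HFD control on the log2 scale, with their standard error (SE). The 10 adipocyte markers, led by Fabp4, summed to between 9105 and 13331 CPM in HFD control mice, and the brown adipocyte gene Ucp1 and all 5 epididymis markers were not listed.

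Of the 43 Nduf genes, 9 rose in IMC-treated mice and none fell. Over all 12787 genes, 20% rose and 21.0% fell (40.9% in either direction), so that the share of Nduf genes that rose, 20.9%, was close to that of all genes. The 9 genes were the core subunits Ndufs1, Ndufs3 and Ndufv1, the accessory subunits Ndufb3, Ndufb9, Ndufa9, Ndufa10 and Ndufv3, and the assembly factor Ndufaf1. Their log2 fold changes lay between 0.20 and 0.47, which is 1.15-fold to 1.39-fold. In 4 of the 43 every IMC-treated mouse was above every HFD control mouse, and in none was every IMC-treated mouse below, against 12.5% and 10.5% of all genes. At an unadjusted p under 0.05 with limma, 11 of the 43 were higher (23.3% of all genes) and none was lower (25.9% of all genes), and none was lower with limma voom on recovered reads. The median log2 fold change of the 43 was 0.05 beside a median of -0.03 over all genes. As deposited, 33 of the 43 values were above 0, and with libraries scaled by their total count 25 were above 0 and the median was 0.02, while the median over all genes was -0.06. That scaling shifts all genes alike. Between the same groups all 10 adipocyte markers rose and 10 of 12 macrophage markers fell. In bulk tissue, fewer cells of a type and less RNA per cell cannot be told apart, and the part of cell make-up in the Nduf result was not tested.

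**Figure D1:**
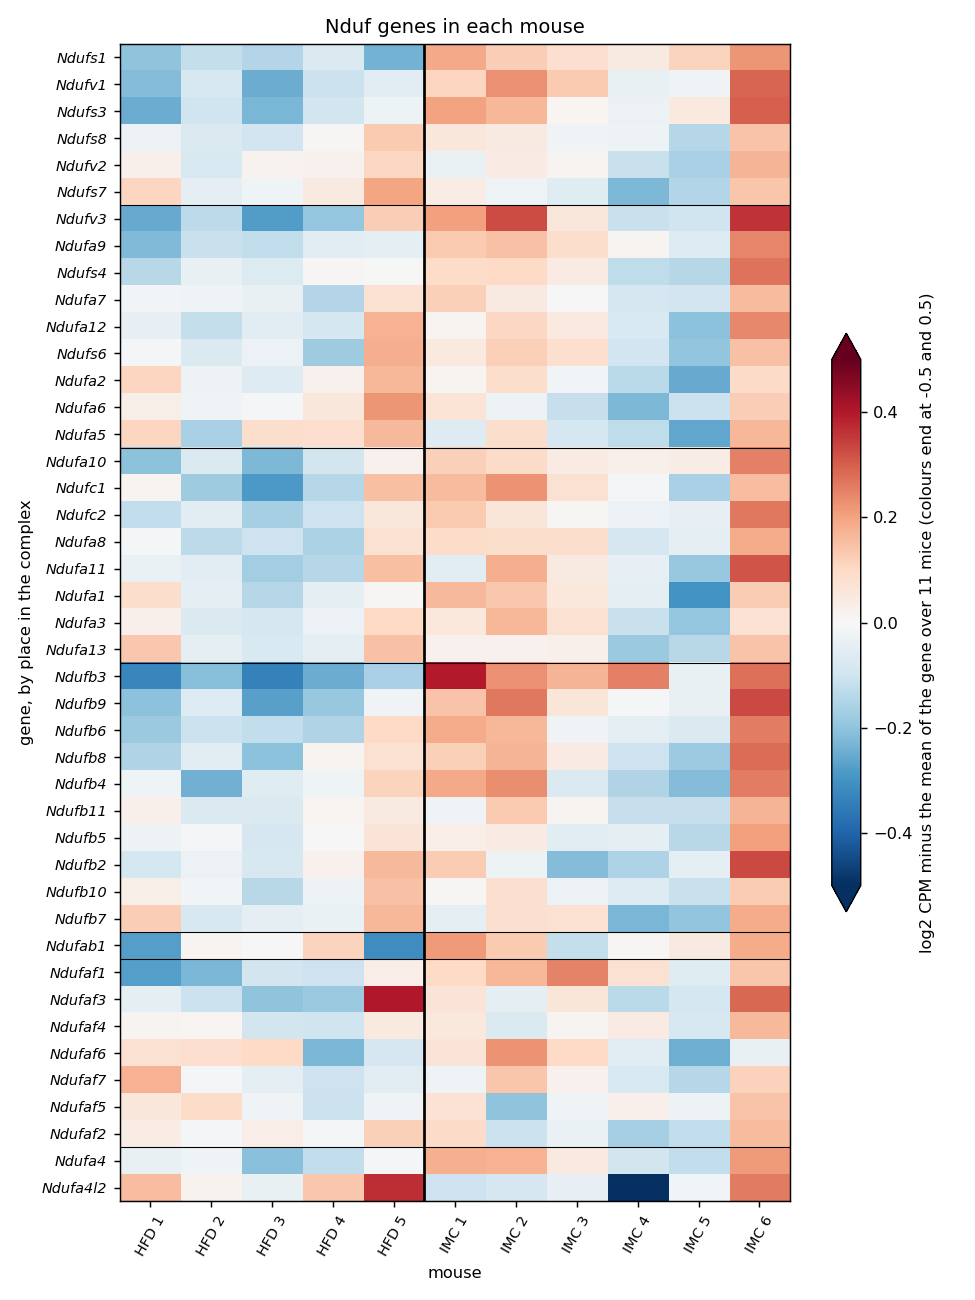
Log2 CPM of the 43 Nduf genes (lines, from top to bottom core subunits, matrix arm, proximal membrane arm and distal membrane arm accessory subunits, Ndufab1, assembly factors and the Ndufa4 family) in 5 HFD control and 6 IMC-treated mice (columns), as the difference from the mean of each gene over the 11 mice, with colours ending at 0.5 either way. Ndufs1, Ndufv1, Ndufa10 and Ndufb3 are lower in every HFD column than in every IMC column, while in most lines HFD 5 and IMC 6 are both high.

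By level, Nduf transcripts differed widely from each other. Per kilobase of mRNA, Ndufa4 was the highest of the 43 at 7.94 on the log2 scale of CPM per kb, followed by Ndufa7 at 7.31 and Ndufb9 at 7.23. The median of the 34 subunits was 6.27, and 32 of the 34 were above every assembly factor. The 7 assembly factors ran from 1.83 (Ndufaf6) to 3.96 (Ndufaf2) on the same scale. The lowest subunits were Ndufb4 at 3.05 and Ndufab1 at 0.07. Both have a near-identical copy elsewhere in the genome (at least 95% identity over at least 200 bases), so that their read counts are uncertain. The same holds for Ndufa12, Ndufb11, Ndufb3, Ndufs3 and Ndufs6, whose values are uncertain for that reason. The value of Ndufab1 per kilobase also rests on an mRNA length of 3479 bases, against a median of 800.5 over the complex I subunits. Before division by length its mean was 1.87 log2 CPM. In addition, 16 of the 43 genes overlap a protein-coding gene (Ndufs1 and Ndufs3 do so on the opposite strand) and 6 overlap a gene on the same strand (Ndufb9 and Ndufa10 among those that rose), and the strand setting of the count is not given in the sources used here.

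Short stretches of sequence near the transcription start are shown for 4 motifs that are known in promoters of respiratory chain genes, since members of a complex may share them. Promoter sequences of RefSeq (build GRCm38.p6, which is mm10; 250 bases before to 50 after the start) were found for 38 of the 43 genes, and not for Ndufs1. Each motif was searched on both strands and is given with its share of the promoters of 9749 listed genes. The heptamer AAGATGG, a core of YY1 sites that also forms the start-codon element of mRNAs with very short leaders, was in 7 of 38 Nduf promoters (18.4%) and in 7.38% of all. In 7 of 7 it began 22 to 38 bases after the start and its ATG was the annotated start codon. Matches after the start, on either strand, were found in 18.4% of Nduf promoters and in 3.08% of all. The 30-base windows are written with the motif in capitals, each on the strand of its gene.
Ndufa9 (chr6:126849098-126849127, minus strand): gcattgtgggagAAGATGGcggccgccgtc
Ndufc1 (chr3:51408916-51408945, minus strand): agcctgcggaacAAGATGGcgccgtccgta
Ndufa3 (chr7:3617383-3617412, plus strand): gccgccaagaacAAGATGGccgggagtaag
Ndufs7 (chr10:80249461-80249490, plus strand): aaggccgaggccAAGATGGcggcgctggcg
Ndufs6 (chr13:73328433-73328462, minus strand): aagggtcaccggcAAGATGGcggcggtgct
Ndufs4 (chr13:114388045-114388074, minus strand): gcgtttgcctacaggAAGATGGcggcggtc
Ndufb8 (chr19:44555393-44555422, minus strand): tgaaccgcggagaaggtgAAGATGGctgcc
Of these 7 genes, Ndufa9 rose in IMC-treated mice and the other 6 did not pass the test. Of all 38 Nduf genes with a promoter sequence, 7 rose.

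The NRF1 motif GCATGCG was in 5 of 38 Nduf promoters (13.2%) and in 6.57% of all. None of the 5 genes rose, and of all 38 genes only 7 did, so that such small counts show no link of a motif to the change. NRF1 is a factor known to act on nuclear genes of the respiratory chain. The windows of the 4 genes with a match before the start show the motif in capitals, on the strand of the gene, and in 3 of them the letters around it also read as the motif on the other strand.
Ndufa8 (chr2:36049329-36049358, minus strand): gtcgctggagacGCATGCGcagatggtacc
Ndufa11 (chr17:56717692-56717721, plus strand): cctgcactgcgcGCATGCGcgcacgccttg
Ndufaf4 (chr4:24897960-24897989, plus strand): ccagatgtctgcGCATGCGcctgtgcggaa
Ndufa6 (chr15:82354357-82354386, minus strand): ttccgcggtagaGCATGCGcattgcagagc
The ETS core CCGGAAG, bound by GABP among others, was in 5 of 38 (13.2%) and in 17.9% of all. The genes Ndufs3 and Ndufaf1 were among the 5 and rose, and their windows before the start are shown with the motif in capitals.
Ndufs3 (chr2:90904731-90904760, minus strand): ccccgcgtccgcCCGGAAGaagagtcactg
Ndufaf1 (chr2:119662835-119662864, minus strand): gcgggaccacaaCCGGAAGcgtggcgaacc
The ESRRA motif AAGGTCA was in 2 of 38 (5.26%) and in 3.03% of all, in promoters of genes that did not pass the test. The genes of the factors themselves had log2 fold changes of -0.11 for Nrf1, 0.01 for Gabpa, -0.03 for Yy1 and -0.08 for Esrra. None of the 8 listed regulators of mitochondrial gene expression passed the test at either level, with an adjusted or an unadjusted p under 0.05, and Ppargc1a was not listed. A match is a description of these letters and not a site of binding.

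The nuclear core subunits described belong to the matrix arm, which holds the flavin and the iron-sulphur clusters. Of the 6, 3 rose, 2 of them without overlap between the groups, and the median log2 fold change of the 6 was 0.14. For comparison, 20% of all genes rose and 12.5% were higher without overlap. Whether the core subunits differed from all genes in these shares was not tested, and 6 genes are few. The 7 core subunits of the membrane arm that mitochondrial DNA encodes were not listed. Ndufs1 (chr1:63143596-63176833, minus strand), the largest core subunit and the holder of several iron-sulphur clusters, stood at 6.68, 6.76, 6.74, 6.81 and 6.65 log2 CPM in HFD 1 to HFD 5. In IMC-treated mice it ran from 6.93 to 7.10 with a median of 7.0 log2 CPM. All 6 IMC-treated mice were above all 5 HFD control mice. The log2 fold change of Ndufs1 was 0.28 (SE 0.045, adjusted p = 0.000415 with limma), and its exact permutation p was 0.00216, the smallest that the 462 splits of the mice can give.

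Ndufv1 (chr19:4007384-4012806, minus strand) binds NADH and the flavin. Its log2 CPM was 6.77, 6.91, 6.74, 6.88 and 6.94 in the HFD control mice and 6.95 to 7.28 with a median of 7.11 in the IMC-treated mice. The groups did not overlap, but HFD 5 and IMC 4 lay next to each other. The log2 fold change of Ndufv1 was 0.26 (SE 0.064, adjusted p = 0.00648 with limma).

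Ndufs3 (chr2:90894634-90904827, minus strand) is a core subunit around which assembly of the matrix arm begins. It had 4.52, 4.67, 4.55, 4.68 and 4.75 log2 CPM in the HFD control mice and 4.74 to 5.07, median 4.88, in the IMC-treated mice. The groups overlapped at their edges, with 5 of 6 IMC-treated mice above the highest HFD control mouse. Ndufs3 rose by 0.25 on the log2 scale (SE 0.069, adjusted p = 0.0106 with limma).

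The other 3 of these core subunits did not pass the test. Ndufs7, which holds the last cluster before ubiquinone, had 6.00, 5.84, 5.87, 5.94 and 6.09 log2 CPM in HFD control mice and 5.67 to 6.03, median 5.85, in IMC-treated mice. No IMC-treated mouse exceeded the highest HFD control mouse. Its log2 fold change was -0.10 with a 95% confidence interval from -0.25 to 0.04. Ndufs8, which carries iron-sulphur clusters on the same path, had 5.92, 5.88, 5.86, 5.96 and 6.08 log2 CPM in the controls and 5.81 to 6.09, median 5.96, under IMC. The groups covered almost the same range, with a log2 fold change of 0.02 (interval -0.10 to 0.14). Ndufv2, the partner of Ndufv1 in the NADH-oxidising tip, had 6.63, 6.53, 6.62, 6.63 and 6.71 log2 CPM in the controls and 6.44 to 6.78, median 6.60, under IMC. The IMC-treated mice lay on both sides of the controls, with a log2 fold change of -0.03 (interval -0.16 to 0.10).

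**Figure D2:**
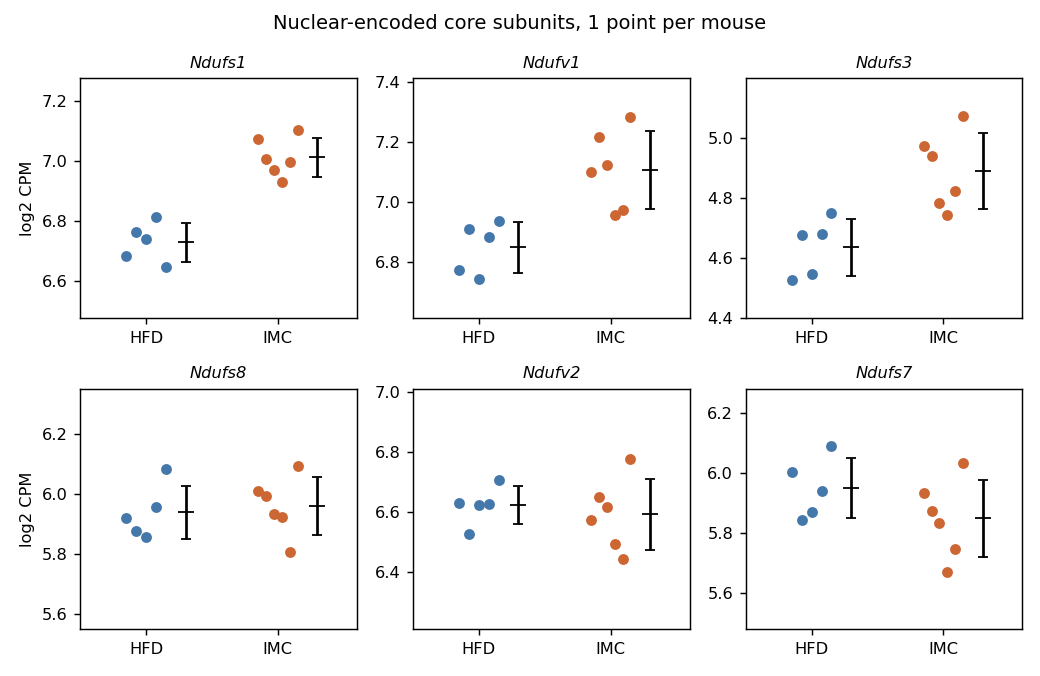
Log2 CPM of 6 nuclear-encoded core subunits in each mouse (HFD n = 5, IMC n = 6), 1 panel per gene with its own range of the vertical axis, and the mean with 1 SD as a bar beside the points. Ndufs1 and Ndufv1 are apart in the 2 groups, Ndufs3 overlaps at the edge (4.75 against 4.74), and Ndufs8, Ndufv2 and Ndufs7 overlap throughout.

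Of the 28 accessory subunits, 5 rose and none fell, with a median log2 fold change of 0.07 and a range from -0.10 to 0.47. The share that rose was 17.9%, beside 20% of all genes. By place it was 22.2% in the matrix arm, 12.5% in the proximal and 20% in the distal membrane arm. In the matrix arm, 2 of 9 rose. Ndufa9 (chr6:126821721-126849136, minus strand), which holds a nucleotide where both arms meet, had 6.50, 6.61, 6.60, 6.67 and 6.67 log2 CPM in HFD control mice. In IMC-treated mice it had 6.66 to 6.97 with a median of 6.83 log2 CPM, and only IMC 5 was not above all controls. Ndufa9 rose by 0.20 on the log2 scale (SE 0.056, adjusted p = 0.0116 with limma). Ndufv3 (chr17:31520115-31531331, plus strand), a small subunit beside Ndufv1, had 6.20, 6.32, 6.18, 6.26 and 6.58 log2 CPM in HFD control mice and 6.34 to 6.82, median 6.59, in IMC-treated mice. HFD 5 was as high as the middle of the IMC-treated group, and 3 of 6 IMC-treated mice were above it. The log2 fold change of Ndufv3 was 0.27 (SE 0.099, adjusted p = 0.044 with limma), the closest of the 9 to the threshold, and it lost the call when any of HFD 1 to HFD 4 or IMC 1, 2, 3 or 6 was left out, the adjusted p over all alternatives lying between 0.0141 and 0.106.

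The remaining matrix arm subunits did not pass the test. Ndufa6, which anchors an acyl carrier protein to the matrix arm, had 5.91, 5.85, 5.87, 5.93 and 6.10 log2 CPM in HFD control mice and 5.65 to 6.00, median 5.81, in IMC-treated mice. The groups overlapped, and the log2 fold change was -0.10 (interval -0.25 to 0.04). Ndufs4, the accessory subunit whose loss is used to model Leigh syndrome in mice, had a log2 fold change of 0.09 (interval -0.06 to 0.24). The thioredoxin-like Ndufa2 was at -0.08, Ndufa5 at -0.10, the zinc-binding Ndufs6 at 0.04, Ndufa7 at 0.05 and Ndufa12 at 0.05.

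Of 8 listed accessory subunits of the proximal membrane arm, 1 rose. Ndufa10 (chr1:92439010-92473860, minus strand), related to nucleoside kinases, had 6.26, 6.39, 6.24, 6.38 and 6.49 log2 CPM in HFD control mice and 6.49 to 6.72, median 6.53, in IMC-treated mice. The groups did not overlap, although the highest control, 6.488, and the lowest IMC-treated mouse, 6.491, were almost level. The log2 fold change of Ndufa10 was 0.21 (SE 0.056, adjusted p = 0.0103 with limma, exact permutation p = 0.00216). Ndufc2, a small subunit of the foot of the membrane arm, was the gene just outside the threshold. It had 5.91, 5.97, 5.86, 5.93 and 6.09 log2 CPM in the controls and 5.99 to 6.30, median 6.06, under IMC. The ranges overlapped, and the log2 fold change was 0.14 (SE 0.061, adjusted p = 0.0758 with limma). Without HFD 5 it passed the threshold.

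Ndufa8, which sits on the side of the intermembrane space and is held by disulphide bonds, had 6.29, 6.16, 6.19, 6.13 and 6.37 log2 CPM in HFD control mice and 6.21 to 6.48, median 6.38, in IMC-treated mice. The groups overlapped, with a log2 fold change of 0.12 (interval -0.01 to 0.25). Ndufc1 was at 0.16, Ndufa11 at 0.09, Ndufa1 at 0.05, Ndufa3 at 0.02 and Ndufa13, also known as Grim19, at -0.04 on the log2 scale of the fold change. None of them passed the test.

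In the distal membrane arm, 2 of 10 accessory subunits rose, and they were among the larger changes. Ndufb3 (chr1:58586384-58595964, plus strand), a small subunit with a single membrane helix, showed the highest fold change of the 43 genes. It had 5.57, 5.68, 5.56, 5.65 and 5.73 log2 CPM in HFD control mice and 5.86 to 6.29, median 6.14, in IMC-treated mice. The groups were well apart, and the log2 fold change was 0.47 (SE 0.068, adjusted p = 0.00021 with limma), or 1.39-fold. A near-identical gene, Gm45930, makes the read count of Ndufb3 uncertain. Ndufb9 (chr15:58933756-58939488, plus strand), which binds an acyl carrier protein in the membrane arm, had 6.52, 6.66, 6.46, 6.54 and 6.71 log2 CPM in the controls. Under IMC it had 6.69 to 7.06 log2 CPM with a median of 6.83, so that 5 of 6 IMC-treated mice were above all controls. Ndufb9 rose by 0.28 on the log2 scale (SE 0.073, adjusted p = 0.00915 with limma).

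Ndufb6, another subunit with a membrane helix, had 5.38, 5.46, 5.44, 5.42 and 5.67 log2 CPM in HFD control mice and 5.49 to 5.82, median 5.64, in IMC-treated mice. HFD 5 stood above the other controls and inside the IMC-treated group. The log2 fold change was 0.17 (SE 0.073, adjusted p = 0.0763 with limma), and without HFD 5 or without IMC 5 it passed the threshold, with 0.22 as its highest value over all alternatives. Ndufb8 was at 0.12, Ndufb4 at 0.09, Ndufb11 at 0.02, Ndufb5 at 0.02, Ndufb2 at 0.01, the disulphide-bonded Ndufb10 at 0.00 and Ndufb7 at -0.05 on the log2 scale of the fold change, and none of these passed. Ndufab1, the mitochondrial acyl carrier protein found in both arms, was at 0.17 (interval -0.07 to 0.41).

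**Figure D3:**
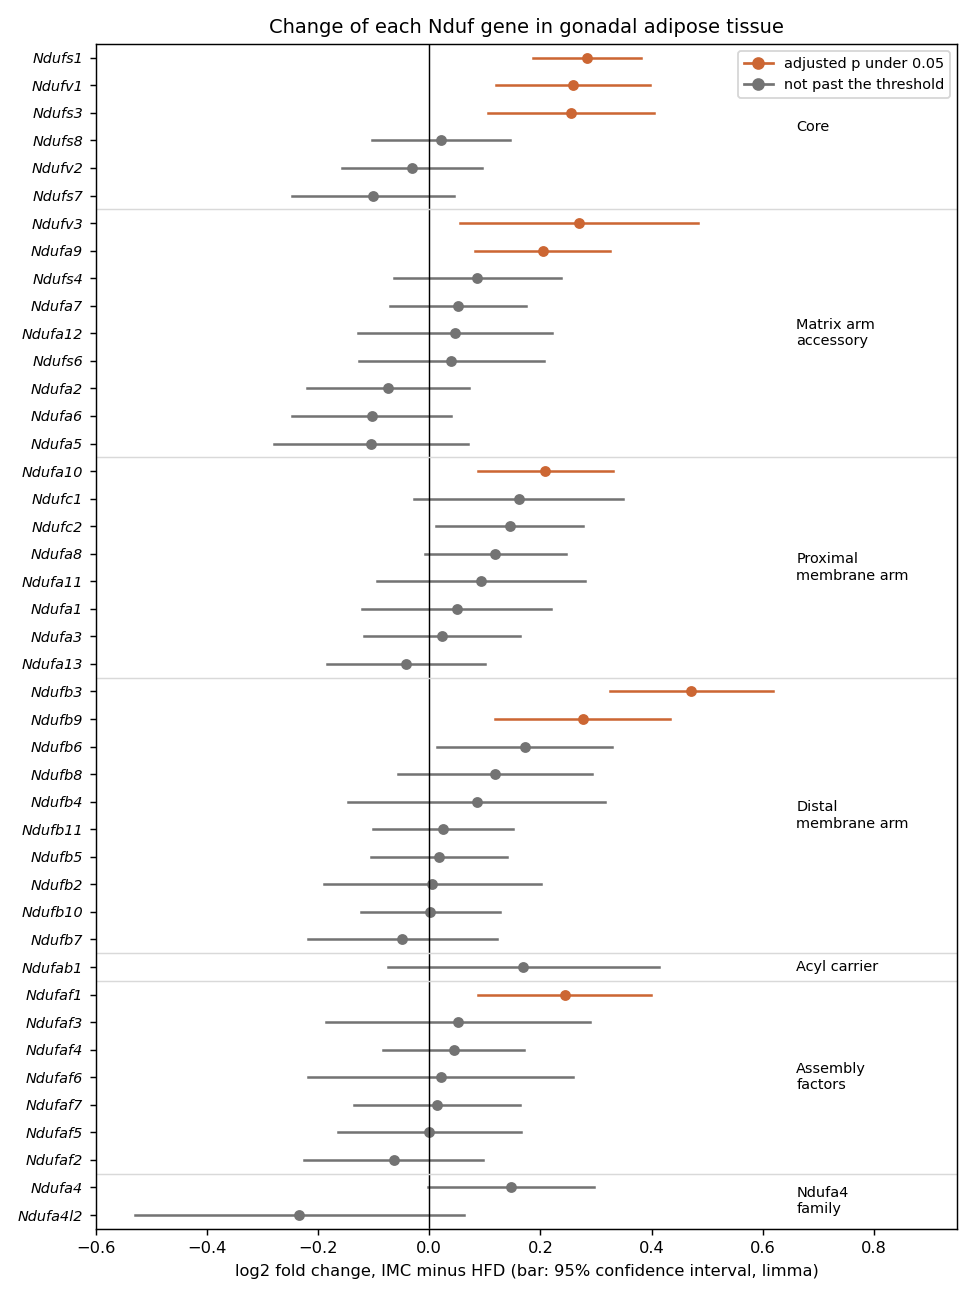
Log2 fold change (IMC minus HFD, horizontal axis) of each of the 43 Nduf genes with its 95% confidence interval from limma, grouped by place in the complex, with the 9 genes past the threshold in orange. The orange points lie between 0.20 and 0.47, and every interval of a gene below 0 crosses 0.

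Of the 7 Ndufaf assembly factors 1 rose (14.3%, beside 20% of all genes), and the median log2 fold change of the 7 was 0.02. Ndufaf1 (chr2:119655446-119662827, minus strand) acts in the assembly of the membrane arm together with Acad9, Ecsit and Tmem126b. Its log2 CPM was 3.89, 3.94, 4.07, 4.06 and 4.20 in HFD control mice and 4.10 to 4.41, median 4.28, in IMC-treated mice. All but IMC 5 were above the highest control, and the log2 fold change was 0.24 (SE 0.072, adjusted p = 0.0163 with limma). Ndufaf2, a paralogue of the subunit Ndufa12 that holds its place during assembly, had 3.44, 3.40, 3.44, 3.39 and 3.52 log2 CPM in the controls and 3.24 to 3.56, median 3.33, under IMC. The controls lay inside the range of the IMC-treated mice, with a log2 fold change of -0.06 (interval -0.23 to 0.10).

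Ndufaf4, which works with Ndufaf3 on the ubiquinone-binding part, had 4.41, 4.41, 4.31, 4.30 and 4.45 log2 CPM in HFD control mice and 4.32 to 4.56, median 4.43, in IMC-treated mice. The groups overlapped, with a log2 fold change of 0.04 (interval -0.08 to 0.17). Ndufaf3 was at 0.05, Ndufaf6 at 0.02, Ndufaf7, a methyltransferase, at 0.01, and Ndufaf5, which hydroxylates Ndufs7, at 0.00. A gene now named Ndufaf8 stood in the table under the older symbol 1810043H04Rik and was not counted, with 3.20 ± 0.15 log2 CPM (SD, n = 5) in controls and 2.89 ± 0.26 (n = 6) under IMC, a log2 fold change of -0.30 (adjusted p = 0.068 with limma). Ndufs5, Ndufb1, Ndufb4b and Ndufb4c were not listed.

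Other assembly factors of complex I do not bear the Nduf name. Among 13 of them listed, 7 rose (53.8%, beside 20% of all genes) and none fell, and the median log2 fold change was 0.18. Acad9, which is both an assembly factor and an acyl-CoA dehydrogenase, rose by 0.56 (SE 0.064, adjusted p = 5.12e-05 with limma). Foxred1 rose by 0.34 and Ecsit by 0.37 on the log2 scale. Tmem126b rose by 0.24. Timmdc1, another factor in the assembly of the membrane arm, was at -0.01 and did not pass the test, and Coa1 was not listed.

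Ndufa4 is now placed with cytochrome c oxidase, and Ndufa4l2 is a paralogue known to be induced by hypoxia. Ndufa4 had 7.19, 7.21, 7.02, 7.11 and 7.22 log2 CPM in HFD control mice and 7.11 to 7.44, median 7.34, in IMC-treated mice. The groups overlapped, and the log2 fold change was 0.15 (SE 0.069, adjusted p = 0.107 with limma), a value that passed the threshold without IMC 5. Ndufa4l2 had 3.14, 3.0, 2.94, 3.11 and 3.35 log2 CPM in the controls and 2.32 to 3.24, median 2.92, under IMC. IMC 4 was far below the rest, and the log2 fold change of -0.23 (SE 0.137, adjusted p = 0.193 with limma) was the lowest of the 43 without passing the test. Per kilobase, Ndufa4 was 29.1-fold above Ndufa4l2. On the log2 scale the ratio of Ndufa4l2 to Ndufa4 was -4.04 ± 0.12 (SD, n = 5) among HFD control mice and -4.42 ± 0.25 (n = 6) in IMC-treated mice, a difference of -0.38 (two-sided exact permutation p = 0.013, smallest possible 0.00216). This shows unequal change of the pair and not which of them changed.

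For the 34 Nduf genes that did not pass, the 95% confidence intervals of the log2 fold change reached from -0.53 (Ndufa4l2) to 0.41 (Ndufab1). In 22 of the 34 the whole interval lay within 0.25 either side of 0. A log2 change of 0.25 in either direction was thus outside the interval for these 22 and inside it, in at least 1 direction, for the other 12.

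Within each group the Nduf genes moved together from mouse to mouse. In HFD 5, 38 of the 43 were above their own mean in the control group, and in HFD 3 only 5 were. In IMC 6, 42 of 43 were above their mean in the IMC-treated group, whereas in IMC 4 and IMC 5 only 3 and 1 were. The median deviation of the 43 genes was 0.13 log2 in HFD 5, 0.16 in IMC 6, -0.11 in IMC 4 and -0.15 in IMC 5, while over all genes it was between -0.014 and 0.013 in every mouse. The SD within groups had a median of 0.118 log2 over the 43 genes.

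The median correlation between pairs of Nduf genes across the 11 mice, after the group means were removed, was 0.69 (903 pairs, 95.3% of them positive), against 0.004 over pairs of all genes. A single axis held 65.6% of the variance of the 43 genes within groups, and 32.1% for all genes. The mice, libraries and scaling are shared by all pairs, so this is a description and carries no test. The 34 complex I subunits gave 72.9% and the 7 assembly factors 49.2%. The complex III subunits gave 79.4%, the complex IV subunits 51.8% and the ATP synthase subunits 61.9%. IMC 6 was also the highest IMC-treated mouse and IMC 5 the lowest for complex III, complex IV and ATP synthase subunits, with median deviations of 0.18, 0.15 and 0.15 in IMC 6 and of -0.16, -0.14 and -0.17 in IMC 5. Cell type markers moved with the Nduf genes in some mice and not in others. The median deviation of the 10 adipocyte markers was 0.14 log2 in IMC 6, -0.12 in IMC 4, -0.08 in IMC 5 and 0.34 in HFD 5, but also 0.29 in HFD 2, where the Nduf median was -0.01. That of the 12 macrophage markers was -0.28 log2 in IMC 6, 0.09 in IMC 4, 0.18 in IMC 5 and -0.02 in HFD 5. In HFD 1 the adipocyte median was -0.27 and the Nduf median 0.007. In IMC 3 the macrophage median was 0.21 and the Nduf median -0.007. The part of these cell types in the shared movement was not tested.

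**Figure D4:**
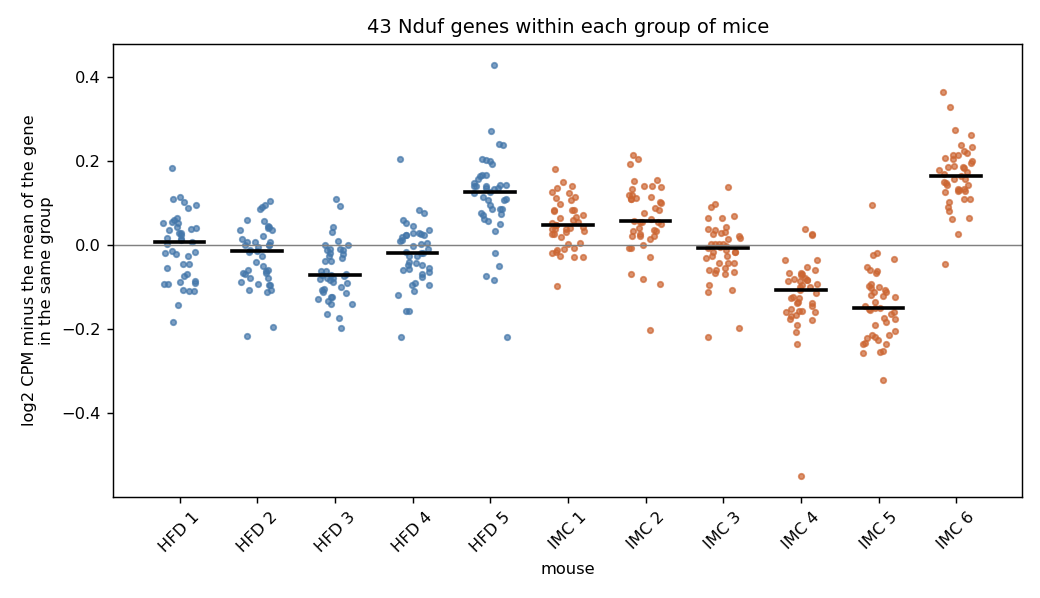
Log2 CPM of each of the 43 Nduf genes minus its mean over the mice of the same group (vertical axis), 1 point per gene in each of the 11 mice, with the median as a bar. The medians run from -0.07 in HFD 3 to 0.13 in HFD 5 and from -0.15 in IMC 5 to 0.16 in IMC 6, and the low point of IMC 4 is Ndufa4l2.

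Single genes took part in this shared movement to different degrees. The correlation with the median of the other members, within groups over 11 mice, was 0.93 for Ndufv3, 0.93 for Ndufb8 and 0.93 for Ndufs8. It was -0.003 for Ndufab1, 0.17 for Ndufaf5, 0.26 for Ndufaf6 and 0.27 for Ndufs1. Ndufab1, Ndufaf5 and Ndufaf6 had low counts, with means of 86.5, 213 and 90.5 reads per mouse, against 2791 for Ndufs1. Counting error lowers such a correlation, and its part in these low values was not tested. Of the 43 genes Ndufs1 had the smallest SD within groups, 0.065 log2, and Ndufa4l2 the largest, 0.25 log2. Among the called genes, Ndufv3 had the highest correlation with the median of the other members and Ndufs1 the lowest. The SD of Ndufv3 within groups was 0.19 log2.

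The other complexes of the chain are given as context, beside 20% of all genes that rose and 21.0% that fell. Complex II and its assembly factors had 5 of 8 genes higher (62.5%) and none lower (median log2 fold change 0.17). This complex is the second entry of electrons into ubiquinone. Its catalytic subunit Sdha rose by 0.37 on the log2 scale (adjusted p = 0.000231 with limma). Without HFD 1 or without HFD 3, 3 of the 8 passed. Of 8 other genes on routes that bring electrons to ubiquinone, 5 rose (62.5%) and none fell, with a median of 0.34. The 8 include Etfa and Etfb, the electron transfer flavoprotein, which passes electrons to Etfdh and is not itself a dehydrogenase. Etfdh rose by 0.53, Etfa by 0.50 and Chdh, the mitochondrial choline dehydrogenase, by 1.03. Of 13 genes of ubiquinone synthesis 5 rose (38.5%), led by Coq8a at 0.72, and 1 (Coq10a, -0.16) fell. The call of Coq10a was lost without HFD 1, HFD 2, HFD 4, IMC 2, IMC 3, IMC 5 or IMC 6.

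Complex III had 3 of 9 subunits higher (33.3%, beside 20% of all genes) and none lower (median 0.14). The count of higher complex III genes was 1 without HFD 1 or HFD 3 and 5 without HFD 5 or IMC 4. Complex IV had 2 of 14 higher (14.3%) and 1 lower (median 0.05). Its count of higher genes was 1 without HFD 1, HFD 3, HFD 4, IMC 1, IMC 3 or IMC 6. The 2 were Cox4i2 and Cox8b, both at low levels, and Cox7a2l fell by 0.20 on the log2 scale, a call lost without HFD 1 or HFD 4. ATP synthase had 4 of 13 higher (30.8%) and 1 lower (median 0.05), with Atp5f1b at 0.35 and Atp5f1a at 0.25. Its count of higher genes was 2 without HFD 1, HFD 3, HFD 4, IMC 1, IMC 2 or IMC 6, and its lower gene, Atp5f1e (-0.18), was not called without HFD 1, HFD 5, IMC 4 or IMC 5. The 8 markers of mitochondrial content were split, with 3 higher (Cs by 0.42) and 2 lower (Vdac2, -0.22). No test of a difference between these lists and the Nduf genes was made.

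**Figure D5:**
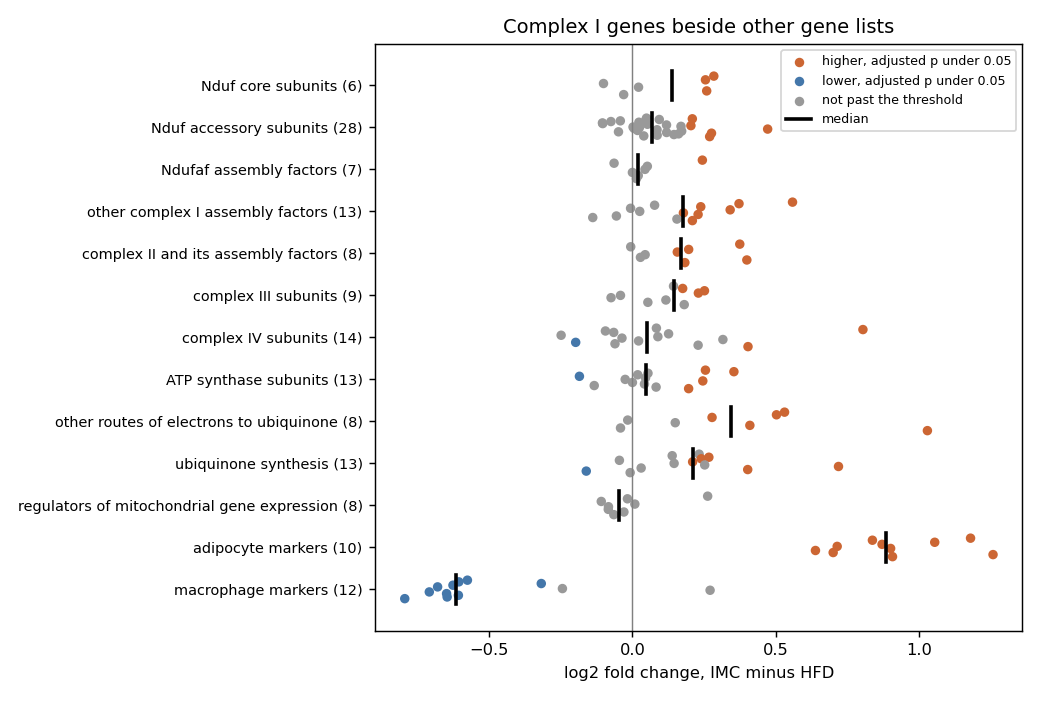
Log2 fold change (IMC minus HFD, horizontal axis) of the genes of 13 lists, 1 point per listed gene with the number in brackets, coloured by the adjusted p from limma, with the median as a bar. The medians are 0.14 for the 6 core Nduf subunits, 0.07 for the 28 accessory subunits and 0.02 for the 7 Ndufaf genes, beside 0.89 for adipocyte markers and -0.62 for macrophage markers.

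Transcript levels of markers of several cell types differed between the groups. Over all genes, 20% rose and 21.0% fell. All 10 adipocyte markers rose, with a median log2 fold change of 0.89 and a summed level of 9105 to 13331 CPM in HFD control mice and of 17644 to 21894 CPM in IMC-treated mice. The highest Nduf fold change, 0.47 for Ndufb3, was below the lowest of the 10 adipocyte markers, 0.64 for Pnpla2. Of 12 macrophage markers 10 fell and none rose (median -0.62), with sums of 10901 to 13773 CPM in HFD control and 6458 to 9265 CPM in IMC-treated mice. All 5 mast cell markers fell, with sums of 489 to 1120 CPM and of 156 to 316 CPM.

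Skeletal muscle, a tissue rich in mitochondria, had 6 of 9 listed markers higher and none lower. The 9 listed summed to 36.7 to 56.5 CPM in controls and 97.4 to 139 CPM under IMC. The 3 with the smallest p, Ldb3, Myh2 and Trdn, had log2 fold changes of 2.40, 3.02 and 2.66. The other 9 of the 18 markers, Ckm, Mylpf and Myh4 among them, were not listed. Of 5 listed brown adipocyte markers 3 rose, with sums of 16.7 to 24.4 CPM and of 23.7 to 38.0 CPM. Of 5 adipose progenitor markers 3 fell (sums of 3761 to 4491 CPM and 2821 to 3456 CPM), and of 4 listed mesothelial markers 1 fell (196 to 274 CPM and 92.3 to 221 CPM). Of 5 endothelial markers 1 rose (329 to 460 CPM and 400 to 520 CPM), and 2 or 3 rose without HFD 2, IMC 1 or IMC 4. Nkg7 was the one lymphocyte marker listed and did not pass. The summed level of the 34 complex I subunits was 2031 to 2316 CPM in HFD control mice and 2070 to 2578 CPM in IMC-treated mice, and these ranges overlap. The part of each of these cell types in the Nduf values was not tested.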

How the data were processed

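RNA was sequenced from gonadal WAT of 5 HFD control and 6 IMC-treated mice, 1 library per mouse, with a directional mRNA kit. The authors trimmed reads with Trim Galore, checked them with FastQC, aligned them with STAR to mm10 (per the labels and the methods of the study), counted reads per gene, removed transcripts with low counts and scaled libraries by the upper quartile with edgeR. The authors deposited log2 CPM values of 12787 genes in 11 mice. The deposited table also holds the authors' own comparison (a log2 fold change, a mean log2 CPM, a likelihood-ratio score, a p-value and its FDR), which was not used.

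Groups were taken from the labels, which give no batch and no age. The groups were compared with limma 3.58.1 in R 4.3.3 (lmFit, eBayes with trend), with Benjamini-Hochberg adjustment over all genes and a threshold of 0.05. Single genes and the ratio of Ndufa4l2 to Ndufa4 were also compared by two-sided exact permutation over 462 splits. The exact permutation p of the 9 called genes, without adjustment, lay between 0.00216 (Ndufs1 and Ndufa10) and 0.0498 (Ndufv3). For Ndufc2, which limma did not call, it was 0.0433. Whole reads were recovered from the log2 CPM (100% of values within 0.01 of a whole read) and served for depth and for alternatives. Reads are not independent molecules, so depth covers counting error only. The fit was checked on simulated data. Symbols, lengths and overlaps came from GENCODE and RefSeq annotation of GRCm38.p6, and mRNA lengths were found for all 43 Nduf genes described. Copies were sought with blastn 2.17.0.

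The members, gene lists and tests were chosen with earlier results of these data known. Described in full are the core subunits, the Ndufa4 family, the 3 genes with the smallest p among the accessory subunits of the matrix, proximal and distal arm and among the assembly factors, the highest and lowest fold change and the genes beside the threshold. Of each other list the 3 genes with the smallest p could be named. Tmem126b, Timmdc1, Coa1, Etfb, Coq10a, Nkg7, Pnpla2, Fabp4, Nrf1, Gabpa, Yy1, Esrra and Ndufaf8 were named in addition, after their values were seen. The fit covered all 12787 genes, and 1 of the 44 Nduf genes is not reported here and stands in no count of members. The methods of the study describe mice housed in groups, with more than 1 cage per condition. The cage of each mouse is not given, and IMC was in the diet, so cage-mates may have shared their treatment. The p-values treat each mouse as independent, and an effect of shared cages was not tested.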

Additional observations from a re-analysis of the deposited data

Results flagged for a closer look

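In each group of mice the highest and the lowest value of every Nduf gene were set against the rest with the test of Dixon, in 86 combinations of gene and group. Chance marks about 1 in 20 such groups, or 4.3 of 86, and 4 were marked. In 3 of the 4 it was HFD 5 that stood above the other controls. Ndufa12 was at 4.53 log2 CPM in HFD 5 and at 4.24 to 4.32 in the other HFD control mice. Ndufaf3 was at 4.39 log2 CPM in HFD 5 and at 3.78 to 3.94 in the others. Ndufb6 was at 5.67 log2 CPM in HFD 5 and at 5.38 to 5.46 in the others. The remaining one was Ndufa5, at 4.64 log2 CPM in HFD 2 and at 4.88 to 4.96 in the other HFD control mice.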

How the results depend on the processing

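The comparison was repeated under 20 alternatives, 11 of which left out a mouse each. Nduf genes that differed numbered 9, with 8 (no trend of the variance, or total count scaling, among others) to 11 (without HFD 5, or without IMC 5) over the alternatives. With a mouse left out, 8 to 11 Nduf genes were higher and 0 lower, and 3 of the 6 core subunits were higher each time. Over all genes, 4299 to 5125 differed with a mouse left out (2178 to 2536 higher and 2113 to 2604 lower). The log2 ratio of Ndufa4l2 to Ndufa4 differed by -0.438 to -0.303, with exact p-values under 0.05. Of the 9 called genes, 8 kept their call in all 20 alternatives and Ndufv3 lost it in 10, and none changed direction. Of the 34 others, Ndufa4, Ndufb6 and Ndufc2 were called in 1 or 2 alternatives. A filter at a mean log2 CPM of 4 left 36 Nduf genes and removed Cox4i2 and Cox8b, so that the count of higher complex IV genes was 0 by construction. With total count scaling, 2 ATP synthase genes were higher and 2 lower, and the cause was not tested. No paired analysis was possible because the labels carry no replicate numbers. The 5 and 6 mice limited precision: the 95% interval of a gene that was not called had a median half-width of 0.154 on the log2 scale.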

Other observations

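The Nduf genes that rose had longer mRNAs than the others. The 9 had a median length of 1380 bases and the 34 others a median of 798 bases. With a limit of 1000 bases, chosen after the values were seen, 7 of 18 longer Nduf genes rose (38.9%) and 2 of 25 shorter ones did (8%). Over all genes, 20.6% of those over 1000 bases rose and 20.4% fell, while of the 675 shorter ones 13.3% rose and 31.3% fell. Spearman's rho between mRNA length and log2 fold change was 0.27 over the 43 Nduf genes, 0.37 over the 34 complex I subunits and 0.13 over 12359 genes with a length. For mean log2 CPM in place of length, rho was 0.28, 0.20 and 0.03 over the same sets. Length and level were not separated. These are relations across genes of the same 11 libraries, genes are not independent replicates, and no test was made. The core subunits are also longer than most accessory subunits, so that length and role cannot be told apart here.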
